A study of Rattus norvegicus with 3 samples.

Results

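The RANKL, OPG and CSF1 axis is the set of secreted signals and receptors through which skeletal cells control the formation of osteoclasts, the cells that resorb bone. Its 6 members were chosen by gene name out of the 20896 gene names listed in the 3 deposited tables: Tnfsf11 (ENSRNOG00000049547), Tnfrsf11b (ENSRNOG00000008336), Tnfrsf11a (ENSRNOG00000015615), Csf1 (ENSRNOG00000018659), Il34 (ENSRNOG00000017602) and Csf1r (ENSRNOG00000018414). All 6 were listed in the sham and UAC tables, and 5 of 6 in the table of the miR-330 library, where Tnfsf11 had no entry.

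The study followed the jaw joint (temporomandibular joint, TMJ) of wild type SD rats under unilateral anterior crossbite (UAC), a dental device that loads the joint abnormally. The 3 groups were sham rats given Vector AAV, UAC rats given Vector AAV and UAC rats given miR-330 AAV, so that every group received an adeno-associated virus (AAV) by injection into the joint. Animals were kept for 8 weeks, and 16 condyles of 8 rats were pooled into 1 droplet-based 3′ single-cell RNA library per group, 24 rats in all. The label of the third library names it only as a treatment group, and its treatment entry is the same as that of the UAC library and names no miR-330. Its agent was inferred from the design text of the series, and every comparison with the miR-330 library depends on this.

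The tables give no values per cell, only 1 mean per gene and cluster of cells, from which whole numbers of unique molecular identifiers (UMIs, tags that count captured RNA molecules) were recovered. The sham library held 77668015 UMIs in 15 clusters, the UAC library 92629658 in 18 and the miR-330 library 97255383 in 19. Levels are UMIs per 1000000 UMIs of the library or cluster named (counts per 1000000, CPM). With 1 library per group there are no replicates: the 95% intervals given are exact Poisson intervals for levels and exact conditional binomial intervals for ratios, they cover counting error only, and no test between groups was possible. The 8 rats of a pool cannot be told apart, and fewer cells of a type and less RNA per cell cannot be told apart in a library-wide level.

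RANKL, encoded by Tnfsf11, is a membrane-bound or shed ligand that binds its receptor RANK (Tnfrsf11a) on osteoclast precursors and drives them to fuse into osteoclasts. Osteoprotegerin (OPG, Tnfrsf11b) is a secreted decoy receptor that binds RANKL and keeps it from RANK, which makes the ratio of ligand to decoy a common readout in joint cartilage and the bone under it. CSF1 and IL-34 are the ligands of CSF1R, the receptor that keeps monocytes, macrophages and osteoclast precursors alive and dividing.

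Clusters had been made in each library alone, and they were named here from lists of marker genes. The skeletal cluster is the one with the most chondrocyte markers: cluster 12 in sham, 16 in UAC and 17 in the miR-330 library. The macrophage-marker cluster was number 15, 9 and 10 in the same order. The granule-gene cluster is the one with the most enriched early granulocyte markers, 5 of 5 in each library against at most 2 in any other cluster, and was number 14, 13 and 18. It is not a single cell class, since its other markers differed between libraries. A cluster with T or NK cell markers was present in UAC (17) and in the miR-330 library (19), and no sham cluster met the naming rule for T or NK cells.

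The labels name chondrocytes and osteoclasts as cell types. Of the 10 genes of the osteoclast marker list, 3 had at most 4 UMIs in any library, Atp6v0d2 was low and the other 6 were at higher levels. Dcstamp, needed for the fusion of osteoclast precursors, had 0 UMIs in sham, 2 in UAC and 0 in the miR-330 library. Ocstamp, which acts beside it, had 3, 2 and 1, and the calcitonin receptor gene Calcr had 4, 1 and 2. Atp6v0d2, a proton pump subunit of osteoclasts, had 72, 92 and 13 UMIs, with a level in the macrophage-marker cluster of 2.36, 10.7 and 1.00 CPM. Acp5, the gene of the acid phosphatase used to stain osteoclasts, had 149, 112 and 94.5 CPM over whole libraries, with 153, 57.3 and 25.6 CPM in the macrophage-marker cluster. Mmp9 was at 62.3, 89.8 and 84.0 CPM, Itgb3 at 10.6, 15.3 and 14.8, Tcirg1 at 15.3, 17.9 and 15.3 and Clcn7 at 16.6, 19.4 and 18.3. In the macrophage-marker cluster Mmp9 was at 9.16, 23.2 and 2.67 CPM, Itgb3 at 36.3, 45.7 and 39.3, Tcirg1 at 83.9, 75.2 and 73.7 and Clcn7 at 19.2, 25.7 and 29.6, so that the order of libraries differed between these genes. These 4 genes, like Acp5, are also expressed by other blood and marrow cells. The osteoclast protease gene Ctsk was highest where chondrocyte markers were, at 177, 260 and 153 CPM in the skeletal cluster against 4.73, 9.54 and 4.34 CPM in the macrophage-marker cluster. The chondrocyte list had UMIs for 16 of 16 markers in the sham skeletal cluster. In the other 2 skeletal clusters it had UMIs for 15 of 16, with Matn1 at 0. Of the 10 osteoclast markers, 8, 9 and 8 had UMIs in the macrophage-marker clusters of sham, UAC and the miR-330 library. These levels describe the clusters and do not test their names.

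Tnfsf11, the ligand of RANK, was at the limit of detection. It had 1 UMI in sham, or 0.0129 CPM (95% interval 0.000326 to 0.0717), 1 UMI in UAC, or 0.0108 CPM (0.000273 to 0.0601), and no entry in the miR-330 library, where the exact upper bound is 0.0379 CPM and the floor of 3 UMIs is 0.0308 CPM. All 3 values lie at or under the floor of 3 UMIs, so no fold is given. The sham UMI fell in B-lineage cluster 6, with 3 enriched B markers. The UAC UMI fell in cluster 5, which was named B lineage from its B marker sum of 11930.7 CPM alone: it had 0 enriched B markers and 5 enriched cycling markers, with Top2a and Mki67 among its 10 leading genes. Thus no RANKL molecule was recorded in the skeletal or macrophage-marker cluster of any library. None was recorded in the T or NK clusters of UAC and the miR-330 library, and sham had no such cluster. T or NK markers summed to 46.9 CPM in sham cluster 6 and 49.6 CPM in UAC cluster 5. Exact upper bounds for Tnfsf11 in the skeletal cluster were 0.409 CPM in sham, 0.617 in UAC and 0.627 in the miR-330 library.

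Tnfrsf11b, the decoy, stood at 9.05 CPM in sham (8.39 to 9.75, 703 UMIs), 4.04 in UAC (3.64 to 4.47, 374 UMIs) and 5.36 in the miR-330 library (4.91 to 5.84, 521 UMIs). The sham library was highest, and the 3 intervals do not overlap. A gene was called changed when its ratio, with 0.5 UMI added to each count, was at least 1.5-fold and the 2 libraries together held at least 30 UMIs. UAC against sham, Tnfrsf11b fell by 1.16 on the log2 scale (95% interval -1.35 to -0.98). The miR-330 library against UAC gave a log2 ratio of 0.41 (0.21 to 0.60), short of the fold, and against sham -0.76 (-0.92 to -0.59), past it. Of these calls only the fall in UAC held under both other scalings. On the deposited mean count scale, which scales each library to its own median cell, miR-330 gave 0.64 against UAC, past the fold, and -0.32 against sham, short of it. Centred on the median gene these were 0.27 and -0.89.

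The decoy was almost wholly a transcript of the skeletal cluster. That cluster held 97.4% of Tnfrsf11b UMIs in sham (exact binomial 95% interval 96.0 to 98.5), 96.5% in UAC (94.1 to 98.1) and 96.4% in the miR-330 library (94.4 to 97.8). Within it the level was 75.9 CPM in sham (70.4 to 81.8), 60.4 in UAC (54.3 to 66.9) and 85.3 in the miR-330 library (78.0 to 93.1). UAC was lowest and the intervals of sham and the miR-330 library overlap. The log2 ratio inside the cluster was -0.33 for UAC against sham (-0.52 to -0.15), 0.50 for miR-330 against UAC (0.30 to 0.70) and 0.17 for miR-330 against sham, with an interval from just under 0 to 0.34, none of them past the fold. The median gene of the cluster moved by 0.14 in the first of these and 0.02 in the next.

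The skeletal cluster held 11.6% of all UMIs in sham, 6.46% in UAC and 6.05% in the miR-330 library. This share and the library-wide level of the decoy were both lower in UAC than in sham, while from UAC to the miR-330 library the share was lower and the decoy level higher. The part of the share in the library-wide level was not tested. Marker levels inside the cluster also moved: the chondrocyte list summed to 56666, 44357 and 60867 CPM, with Col2a1 the most abundant gene at 27180, 19379 and 24344 CPM. The osteogenic list summed to 70479, 60925 and 60917 CPM, led by Col1a1. The fibroblast list summed to 10650, 10118 and 8102 CPM, led by Col3a1, and the neutrophil list to 1251, 4383 and 868 CPM. The part of these levels in the result was not tested.

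Outside the skeletal cluster Tnfrsf11b was at 0.262 CPM in sham, 0.150 in UAC and 0.208 in the miR-330 library, or 0.345%, 0.249% and 0.244% of its level inside. Col2a1, the main collagen of cartilage, was at 0.222%, 0.120% and 0.204% of its inside level, and the osteoblast gene Bglap at 0.404%, 0.244% and 0.376%. The value of the decoy lay between these skeletal genes in sham and the miR-330 library. In UAC, with 13 UMIs outside the cluster, it lay above both, and above Col1a1 (0.147%) and Acan (0.199%). In sham, cluster 5 was the only other one over 3 UMIs (0.909 CPM), and the skeletal level was above it by 83.5-fold (35.6 to 258). In UAC no other cluster passed 3 UMIs. In the miR-330 library the next cluster, number 5 with erythroid markers, had 3.17 CPM, and the skeletal level was above it by 26.9-fold (14.05 to 59.1).

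Osteocytes, the cells embedded in bone, are a known source of RANKL. Some of their genes had UMIs in the skeletal cluster while Tnfsf11 had none. That cluster also held chondrocyte and osteogenic markers, so that osteocytes were not told apart in it. Dmp1, a matrix gene of osteocytes, was at 27.1 CPM in sham, 61.2 in UAC and 32.8 in the miR-330 library. Mepe was at 0.443, 11.4 and 14.6 CPM (4, 68 and 86 UMIs) and Phex at 6.10, 3.85 and 12.7 CPM (55, 23 and 75 UMIs). Sost and Dkk1, which encode secreted Wnt inhibitors, had no entry in any table. These 5 genes were picked out of the marker and gene lists after their values were seen.

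The ratio of ligand to decoy needs no scaling, since both counts come from the same library, and a 3′ UMI count does not grow with transcript length. It was 1 to 703 UMIs in sham, a ratio of 0.00142 (95% interval 3.60e-05 to 0.00795). UAC had 1 to 374 UMIs, a ratio of 0.00267 (6.75e-05 to 0.0150). The miR-330 library had 0 to 521, with an upper bound of 0.00711. The decoy outnumbered the ligand in every library, while the intervals of the ratio overlap, so that at this depth the 3 libraries are not separated by it. In the skeletal cluster alone the counts were 0 to 685, 0 to 361 and 0 to 502, with upper bounds of 0.00540, 0.0103 and 0.00738.

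Csf1, the broadly expressed ligand of CSF1R, was at 6.0 CPM in sham (5.47 to 6.57, 466 UMIs), 8.30 in UAC (7.73 to 8.91, 769 UMIs) and 9.59 in the miR-330 library (8.99 to 10.2, 933 UMIs). The 3 intervals do not overlap, and sham was lowest. The log2 ratio was 0.47 for UAC against sham (0.30 to 0.64) and 0.21 for miR-330 against UAC (0.07 to 0.35), neither past the fold. The miR-330 library against sham gave 0.68 (0.52 to 0.84), which is past it. The median gene moved by 0.13 in miR-330 against UAC and by 0.14 in miR-330 against sham. Relative to it Csf1 was at 0.08 and 0.54, so that the call against sham is lost. On the deposited mean count scale UAC against sham was 0.66 and miR-330 against sham 1.11, both past the fold, as were 13% and 48.6% of all genes tested (higher).

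Csf1 had more than 3 UMIs in every one of the 52 clusters. The granule-gene cluster was highest in each library, at 39.4 CPM in sham (30.1 to 50.6), 89.8 in UAC (80.0 to 100.4) and 69.8 in the miR-330 library (61.3 to 79.1). UAC was the highest of the 3. Between UAC cluster 13 and sham cluster 14 Csf1 rose with a log2 ratio of 1.18 (0.79 to 1.61), a ratio of clusters whose leading genes differ, and miR-330 against UAC gave -0.36 (-0.61 to -0.12), short of the fold. The median gene of the cluster moved by 0.53 in that comparison, and relative to it Csf1 was at -0.90, past the fold. The miR-330 library against sham gave 0.82 (0.41 to 1.25), past the fold, or 0.21 relative to the median gene of the cluster, short of it.

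The make-up of the granule-gene cluster differed between libraries. Its 10 leading genes held 4 erythroid, 1 early granulocyte and 0 mast cell markers in sham, 0, 1 and 3 in UAC and 0, 3 and 0 in the miR-330 library. Only the UAC cluster met the naming rule, as mast or basophil. Mast cell or basophil markers summed to 6826 CPM in sham (9 of 9 listed markers with UMIs), 11884.5 in UAC (9 of 9) and 8577 in the miR-330 library (8 of 9), led by Mcpt10 in each, with Mcpt8 not among the markers with UMIs in any. Early granulocyte markers, 5 of 5 with UMIs in each, summed to 2713, 3071 and 5245 CPM. Erythroid markers summed to 75575, 10116 and 48.8 CPM, led by Hba-a1, and neutrophil markers to 11061, 5234 and 203042 CPM, led by S100a9. The part of these levels in the Csf1 values was not tested. Without the granule-gene cluster, an alternative chosen after seeing the data, the library-wide log2 ratio of Csf1 was -0.04 for UAC against sham and 0.51 for miR-330 against UAC.

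The next clusters in the order of Csf1 differed between libraries. In sham the macrophage-marker cluster came next at 21.9 CPM (17.2 to 27.4), above the neutrophil cluster 8 at 13.8 CPM (9.93 to 18.6) by 1.59-fold (1.07 to 2.38), and cluster 8 and the skeletal cluster at 10.5 CPM do not differ beyond their interval. In UAC the neutrophil cluster 8 came next at 37.9 CPM (30.3 to 47.0), followed by the skeletal cluster at 13.2. In the miR-330 library it was the neutrophil cluster 6 at 40.2 CPM (32.6 to 49.0), then the T or NK cluster at 24.6 and the skeletal cluster at 17.2. From the skeletal cluster down, neighbours in this order did not differ beyond their intervals in sham and UAC. In the miR-330 library the same held except between erythroid cluster 5 at 15.9 CPM and the macrophage-marker cluster at 8.02.

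**Figure D1:**
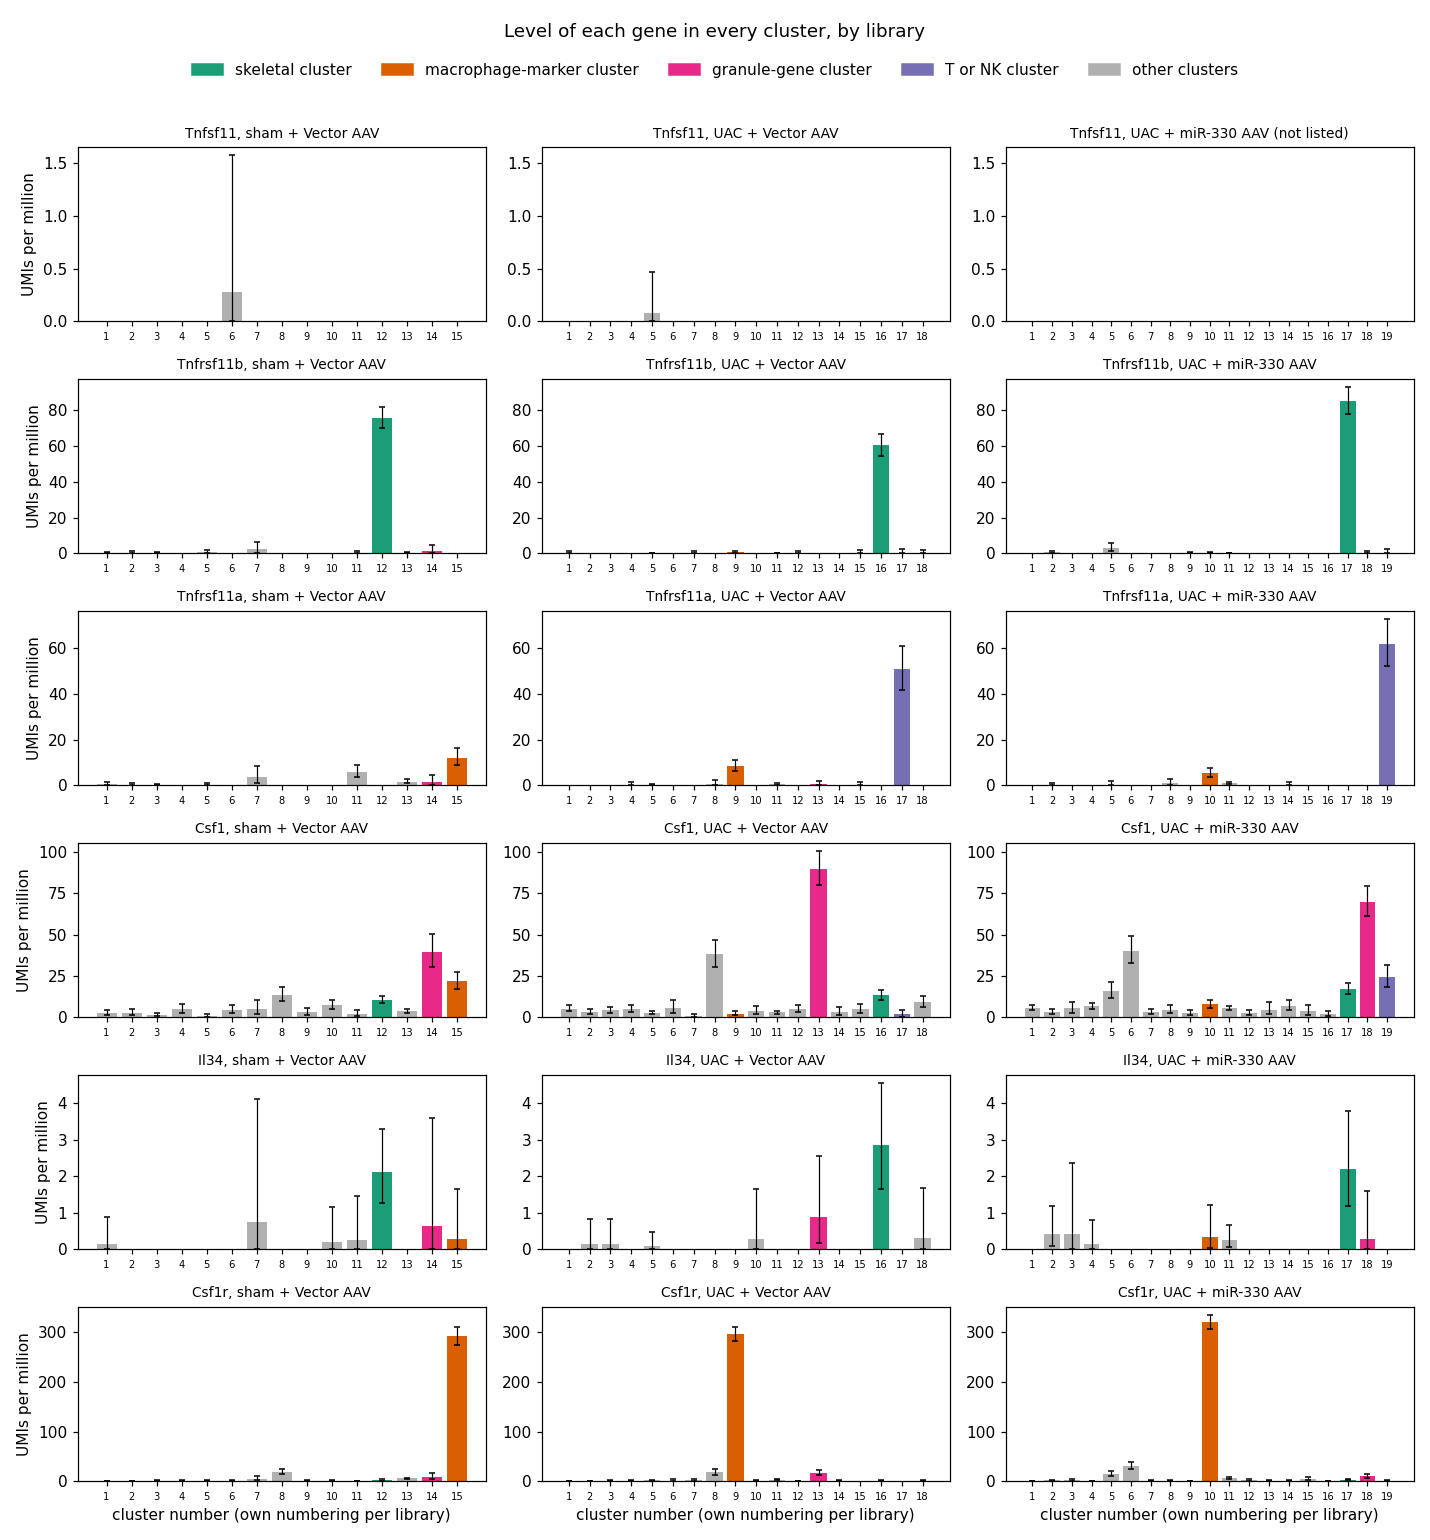
Level of each member (vertical axes, UMIs per 1000000 UMIs of the cluster) in every cluster (horizontal axes) of the sham, UAC and miR-330 libraries, as bars with exact Poisson 95% intervals drawn where the gene had UMIs and colours for the skeletal, macrophage-marker, granule-gene, T or NK and other clusters. Tnfrsf11b stands in the skeletal clusters at 75.9, 60.4 and 85.3 CPM and Csf1r in the macrophage-marker clusters at 292, 296 and 320 CPM, while Csf1 has UMIs in all 52 clusters.

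In the macrophage-marker cluster Csf1 was at 21.9 CPM in sham (74 UMIs), 2.22 in UAC (1.18 to 3.79, 13 UMIs) and 8.02 in the miR-330 library (5.91 to 10.6, 48 UMIs). Sham was highest and UAC lowest, with intervals that do not overlap. Csf1 fell by 3.26 there on the log2 scale in UAC against sham (-4.28 to -2.44), and it rose in miR-330 against UAC with a log2 ratio of 1.82 (0.95 to 2.86). Against sham, the miR-330 library gave -1.44 (-2.00 to -0.90). The log2 ratios in the granule-gene cluster have the opposite sign in each of the 3 comparisons, and the difference between the clusters was not tested.

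Mast cell or basophil markers in the macrophage-marker cluster summed to 662 CPM in sham (9 of 9 with UMIs), 11.4 in UAC (8 of 9) and 8.52 in the miR-330 library (6 of 9), led by Mcpt10 at 271, 8.69 and 5.35 CPM. The macrophage list there summed to 2774, 1629 and 1457 CPM, with C1qa most abundant in sham, Cd14 in UAC and Cd68 in the miR-330 library, and with Marco and Ccr2 not among the markers with UMIs in any. The marrow stromal list summed to 162, 11.1 and 34.1 CPM (3, 4 and 6 of 6 with UMIs), led by Vcam1 at 160.4, 10.2 and 30.7 CPM. Its sum was thus mostly that of Vcam1 alone, and had the same order of libraries as Csf1. The erythroid list, 9 of 9 with UMIs in each, summed to 1155, 50.8 and 69.7 CPM, led by Hba-a1, with that order too. The chondrocyte, B-lineage, megakaryocyte, endothelial, mural and skeletal muscle lists also had it, and the remaining lists did not. The part of these levels in the Csf1 values was not tested. In the T or NK cluster Csf1 went from 1.83 CPM in UAC (4 UMIs) to 24.6 in the miR-330 library (57 UMIs), a rise with a log2 ratio of 3.59 (2.32 to 5.67). The mast cell or basophil list went from 26.5 CPM there (6 of 9 with UMIs, led by Mcpt10) to 2237 CPM (9 of 9, led by Cpa3), and its part in the result was not tested.

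In the skeletal cluster Csf1 was at 10.5 CPM in sham (8.52 to 12.9), 13.2 in UAC (10.5 to 16.5) and 17.2 in the miR-330 library (13.98 to 20.9). The intervals of neighbouring libraries overlap, and the log2 ratios of 0.33 (-0.12 to 0.77) and 0.38 (-0.06 to 0.82) include 0. The intervals of sham and the miR-330 library do not overlap, and miR-330 against sham gave 0.70 (0.29 to 1.12), past the fold, or 0.55 relative to the median gene of the cluster, short of it. B-lineage clusters held 24.5%, 22.9% and 23.2% of Csf1 UMIs, against 57.4%, 47.9% and 49.4% of all UMIs.

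Il34, the other CSF1R ligand, had 25 UMIs in each library, or 0.322 CPM in sham (0.208 to 0.475), 0.270 in UAC (0.175 to 0.398) and 0.257 in the miR-330 library (0.166 to 0.379). The intervals overlap, and neither comparison passed the fold. Of these UMIs 19, 17 and 13 were in the skeletal cluster, at 2.11, 2.84 and 2.21 CPM. No other cluster of sham or UAC had more than 3, and in the miR-330 library erythroid cluster 11 had 4. Csf1 outnumbered Il34 by 18.6 to 1 in sham (12.5 to 29.1), 30.8 in UAC (20.7 to 47.8) and 37.3 in the miR-330 library (25.1 to 58.0). Inside the skeletal cluster the ratio was 5.0 (3.03 to 8.67), 4.65 (2.73 to 8.37) and 7.77 (4.34 to 15.1), so that IL-34 made up more of the CSF1R ligand RNA there than in the whole libraries.

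Tnfrsf11a, which encodes RANK, was at 1.24 CPM in sham (1.00 to 1.51, 96 UMIs), 1.86 in UAC (1.59 to 2.16, 172 UMIs) and 2.03 in the miR-330 library (1.75 to 2.33, 197 UMIs). Sham was lowest, and its interval overlaps neither of the others. UAC against sham gave a log2 ratio of 0.58 (0.22 to 0.96), a fold of 1.499 that lies just under the 1.5 of the call. This outcome turns with scaling, to 0.60 centred on the median gene and 0.78 on the deposited mean count scale, both past the fold. The miR-330 library against UAC gave 0.12 (-0.18 to 0.43). Against sham it gave 0.71 (0.35 to 1.08), past the fold, with 1.14 on the deposited mean count scale and 0.57, short of the fold, relative to the median gene.

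Most RANK transcripts of the 2 UAC libraries were in the T or NK cluster and not in the macrophage-marker cluster. That cluster held 111 UMIs at 50.7 CPM in UAC (41.7 to 61.0), or 64.5% of the gene's UMIs, and 143 UMIs at 61.6 CPM in the miR-330 library (51.9 to 72.6), or 72.6%. The log2 ratio between them was 0.28 (-0.09 to 0.65). The macrophage-marker cluster followed, and the T or NK level was above it by 6.07-fold in UAC (4.30 to 8.68) and 11.2-fold in the miR-330 library (7.61 to 16.9). All 14 T or NK markers had UMIs in these clusters, and their levels summed to 3384 CPM in UAC, with Cd3e the most abundant, and 2872 CPM in the miR-330 library, with Nkg7 the most abundant.

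Sham had no such cluster, and its order was different. The macrophage-marker cluster was highest for Tnfrsf11a at 12.1 CPM (8.69 to 16.4), above B-lineage cluster 11 at 5.81 CPM (3.64 to 8.80) by 2.08-fold (1.21 to 3.68). Clusters 11, 7, 13 and 1 followed each other without a difference beyond their intervals. All 14 T or NK markers had UMIs in sham clusters 11, 13 and 1, where they summed to 288, 157 and 140 CPM, led by Cd3g in each. The largest sum of a sham cluster, 445 CPM with 11 of 14, was that of granule-gene cluster 14, led by Nkg7 at 409 CPM. Over the whole library the T or NK list summed to 105 CPM in sham, 175 in UAC and 158 in the miR-330 library, led by Nkg7 in each. Its part in the library-wide level of Tnfrsf11a was not tested. Without the T or NK clusters, an alternative chosen after seeing the data, miR-330 against UAC gave a log2 ratio of -0.24. For UAC against sham it was -0.87, but 111 of 172 UMIs were taken from UAC and 0 from sham, so that this value is no like-for-like comparison.

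In the macrophage-marker cluster Tnfrsf11a was at 12.1 CPM in sham (41 UMIs), 8.35 in UAC (6.18 to 11.04, 49 UMIs) and 5.51 in the miR-330 library (3.79 to 7.74, 33 UMIs). Neighbouring intervals overlap, and those of sham and the miR-330 library do not. The log2 ratio was -0.54 for UAC against sham (-1.16 to 0.10). It was -0.59 for miR-330 against UAC (-1.28 to 0.07), past the fold with an interval that includes 0, and -1.13 for miR-330 against sham (-1.84 to -0.44). Macrophage markers there summed to 2774, 1629 and 1457 CPM, and mast cell or basophil markers to 662, 11.4 and 8.52 CPM. Both lists had the order of libraries of Tnfrsf11a. So did the osteoclast list, at 310, 248 and 176 CPM, and the dendritic, osteogenic and neutrophil lists. The remaining lists had other orders, and the marrow stromal list (mostly Vcam1) and the erythroid list were lowest in UAC. What these levels add to the ratios was not tested. Tnfrsf11a had 0 UMIs in the skeletal cluster of all 3 libraries. RefSeq lists the name Tnfrsf11a as a synonym of Zcchc2, a gene with an entry of its own in the tables, and Zcchc2 had 74.7%, 66.0% and 62.6% of its UMIs in B-lineage clusters.

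Csf1r was the most abundant member, at 15.5 CPM in sham (14.6 to 16.4, 1201 UMIs), 21.1 in UAC (20.2 to 22.1, 1957 UMIs) and 23.3 in the miR-330 library (22.4 to 24.3, 2270 UMIs). The intervals do not overlap, and sham was lowest. UAC against sham gave a log2 ratio of 0.45 (0.35 to 0.56) and miR-330 against UAC 0.14 (0.06 to 0.23), neither past the fold, and the second is 0.01 relative to the median gene. The miR-330 library against sham gave 0.59 (0.49 to 0.70), past the fold, or 0.46 relative to the median gene, short of it. On the deposited mean count scale UAC against sham was 0.65 and miR-330 against sham 1.03, both past the fold.

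The receptor marked the macrophage-marker cluster in each library, with 82.3% of its UMIs in sham (80.0 to 84.4), 88.6% in UAC (87.1 to 89.98) and 84.4% in the miR-330 library (82.8 to 85.9). Csf1r was not used to choose that cluster. Its level there was 292 CPM in sham (274 to 311), 296 in UAC (282 to 310) and 320 in the miR-330 library (306 to 335). The log2 ratio was 0.02 for UAC against sham (-0.10 to 0.13) and 0.12 for miR-330 against UAC (0.02 to 0.21), and the second turns to -0.06 when centred on the median gene of the cluster. The cluster's share of all UMIs was 4.36% in sham, 6.33% in UAC and 6.16% in the miR-330 library. Share and library-wide Csf1r level were both higher in UAC than in sham, and went opposite ways from UAC to the miR-330 library. The part of the share in that level was not tested.

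The next cluster for Csf1r was far lower. It was neutrophil cluster 8 in sham at 19.0 CPM (14.4 to 24.6), with the macrophage-marker level 15.3-fold above it (11.8 to 20.4). In UAC it was neutrophil cluster 8 at 18.5 CPM (13.3 to 25.1), which does not differ beyond the interval from the granule-gene cluster at 17.3 CPM. In the miR-330 library it was neutrophil cluster 6 at 30.8 CPM (24.2 to 38.6). The receptor and its ligand thus had different leading clusters, Csf1r the macrophage-marker cluster and Csf1 the granule-gene cluster. Within the macrophage-marker cluster there were 0.0749 Csf1 UMIs per Csf1r UMI in sham (0.0583 to 0.0949), 0.00750 in UAC (0.00398 to 0.0129) and 0.0251 in the miR-330 library (0.0184 to 0.0334), while over whole libraries the ratio was 0.388, 0.393 and 0.411 with overlapping intervals. Mast cell or basophil markers, marrow stromal markers (mostly Vcam1) and erythroid markers of the macrophage-marker cluster were also highest in sham, as were those of several other lists. Their part in the ratio within the cluster was not tested.

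**Figure D2:**
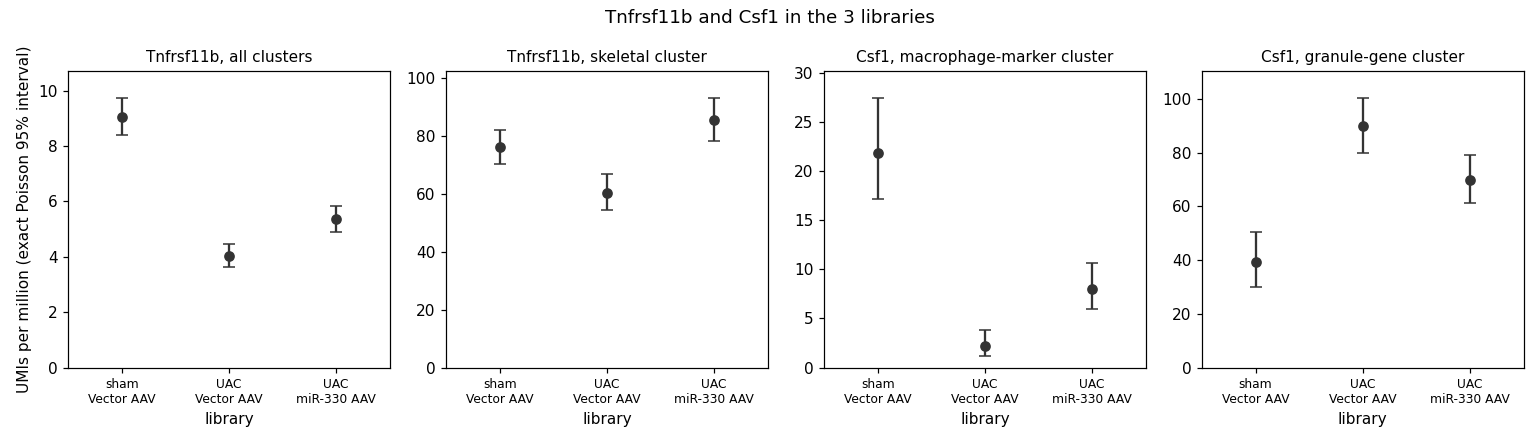
Levels (vertical axes, UMIs per 1000000) of Tnfrsf11b over all clusters and in the skeletal cluster, and of Csf1 in the macrophage-marker and granule-gene clusters, as points for the sham, UAC and miR-330 libraries with exact Poisson 95% intervals. Csf1 is at 21.9, 2.22 and 8.02 CPM in the macrophage-marker cluster and at 39.4, 89.8 and 69.8 CPM in the granule-gene cluster.

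Genes with the most similar pattern were ranked for each member by Pearson correlation of log2(CPM + 1) over the 52 clusters, among 12789 genes with at least 50 UMIs in each library. The points share libraries and depth, so r is a description. For Tnfrsf11b they were Synpo (r = 0.974), AABR07008439.1 (0.974), NEWGENE_621351 (0.973), Lims2 (0.972) and AABR07070046.1 (0.972). For Tnfrsf11a they were Cysltr1 (0.953), Klrk1 (0.922), Cd226 (0.905), Cd8a (0.897) and Cd8b (0.896), of which Klrk1, Cd226, Cd8a and Cd8b encode surface receptors of T and NK cells. Csf1r was most like Clec4a1 (0.901), Gpnmb (0.881), Trem2 (0.879), Clec4a3 (0.876) and Msr1 (0.875), genes of macrophages and related myeloid cells. Csf1 had no close match, with Fetub (0.717), Mcpt1l1 (0.687), Fcer1a (0.683), Nucb2 (0.674) and Prss29 (0.664) at the top. Il34, whose own count was under the minimum of 50 UMIs, was most like Scx (0.902), Tfpi2 (0.899), Zfp185 (0.894), Dmp1 (0.891) and Il11ra1 (0.891).

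Of the 5 members with at least 30 UMIs in the 2 libraries together, 0 were called higher in UAC against sham, where 7.72% of all genes tested were, and 1 was called lower (Tnfrsf11b), where 6.70% of all genes were. In miR-330 against UAC 0 of 5 were called higher, with 12.2% of all genes, and 0 of 5 lower, with 4.29%. In miR-330 against sham 3 of 5 were higher (Tnfrsf11a, Csf1 and Csf1r), with 19.4% of all genes, and 1 lower (Tnfrsf11b), with 8.40%. The 3 comparisons share libraries.

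The counts depend on scaling, which moves every gene alike, and each is read beside the share of all genes on the same scale. On the deposited mean count scale 3 of 5 were higher in UAC against sham (Tnfrsf11a, Csf1 and Csf1r), with 13% of all genes, and 1 lower, with 3.93%. In miR-330 against UAC 1 of 5 was higher there (Tnfrsf11b), with 28.9%, and 0 lower, with 2.10%, and in miR-330 against sham 3 of 5 were higher, with 48.6%, and 0 lower, with 2.62%. Centred on the median gene 1 of 5 was higher in UAC against sham (Tnfrsf11a), with 8.19%, and 1 lower, with 6.36%. In miR-330 against UAC 0 of 5 were higher, with 7.22%, and 0 lower, with 6.77%, and in miR-330 against sham 0 were higher, with 13.1%, and 1 lower, with 13.7%. These counts of 5 members were not tested against those shares.

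The 6 lists of genes around the axis, 131 genes in all with 11 in more than 1 list, were read beside the members, and 117 of them had enough UMIs in each comparison. UAC against sham, 18 were higher (15.4%, against 7.72% of all genes) and 3 lower (2.56%, against 6.70%), with a median log2 ratio of 0.14 against -0.02 over all genes tested. On the deposited mean count scale 31 were higher (26.5%, against 13% of all genes) and 2 lower (1.71%, against 3.93%), and centred on the median gene 19 were higher (16.2%, against 8.19%) and 3 lower (2.56%, against 6.36%). In miR-330 against UAC 7 were higher (5.98%, against 12.2%) and 7 lower (5.98%, against 4.29%), with a median of 0.12 against 0.13 over all genes. That split depends on scaling too: it was 34 higher (29.1%, against 28.9% of all genes) and 3 lower (2.56%, against 2.10%) on the deposited mean count scale. After centring on the median gene it was 4 higher (3.42%, against 7.22%) and 11 lower (9.40%, against 6.77%).

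The counts of each list are read beside the shares of all genes, which were 7.72% higher and 6.70% lower in UAC against sham and 12.2% higher and 4.29% lower in miR-330 against UAC. RANK signalling had 3 of 41 genes (7.32%) higher and 0 lower in UAC, and 1 of 41 (2.44%) higher and 0 lower in miR-330 against UAC, with median log2 ratios of 0.11 and 0.19. Camk4, a calcium-dependent kinase gene, rose from 4.30 CPM in sham to 15.8 in UAC, with 19.6 in the miR-330 library, and 89.1% of its UAC UMIs were in the T or NK cluster, which sham lacked. Lgr4, which encodes another receptor that RANKL can bind, was at 5.55, 5.37 and 10.7 CPM, a rise in miR-330 against UAC with a log2 ratio of 0.99 (0.84 to 1.15). In the skeletal cluster Lgr4 was at 24.9, 39.1 and 61.5 CPM, so that this receptor had RNA where Tnfrsf11a had none. Brakes on osteoclast formation had 2 of 17 (11.8%) higher and 0 lower in UAC, then 1 higher and 1 lower of 17 (5.88% each), with medians of 0.20 and 0.12. Irf8, a transcription factor gene of that list, rose from 24.6 to 37.0 CPM over the whole UAC library, while in the macrophage-marker cluster it was at 161, 73.6 and 133 CPM.

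Among RANKL sheddases and inducing receptors 4 of 20 genes (20%) were higher and 1 (5%) lower in UAC, then 3 (15%) higher and 1 (5%) lower of 20, with medians of 0.02 and 0.23. The gene that fell in UAC was Pth1r, the parathyroid hormone receptor gene, at 90.3 CPM in sham, 33.3 in UAC and 49.6 in the miR-330 library. As for Tnfrsf11b, most of its UMIs (97.2%, 97.2% and 97.0%) were in the skeletal cluster, with 755, 501 and 794 CPM there. Adam10, a protease gene, rose in miR-330 against UAC from 40.3 to 66.4 CPM.

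Of the ligands that act on RANKL or OPG supply 4 of 13 (30.8%) were higher and 0 lower in UAC, and 0 higher and 4 (30.8%) lower of 13 in miR-330 against UAC. The medians were 0.19 and -0.40, and are the same with the 0 counts of Il17a set to the floor of 3 UMIs. Il17a, a T cell cytokine gene, had 0 UMIs in sham, 148 in UAC and 0 in the miR-330 library. Against the floor of 3 UMIs per library it was at least 41.4-fold higher in UAC than in sham and at least 51.8-fold lower with miR-330 than in UAC. Of the UAC UMIs 145 were in the T or NK cluster, the cluster that also held most of Tnfrsf11a. Osm, which encodes a cytokine of the IL-6 family, rose from 26.2 to 55.2 CPM in UAC and was at 38.7 in the miR-330 library. Over whole libraries the neutrophil marker list summed to 41326, 63929 and 44938.5 CPM, with the order of libraries that Osm had. The macrophage marker list, at 166, 146 and 143 CPM, had another order. What these levels add to the values of the ligands was not tested. Il6 was at 0.760, 0.810 and 0.247 CPM and Il1a at 0.502, 0.723 and 0.278, and both fell in miR-330 against UAC.

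CSF1R signalling and partners had 2 higher and 2 lower of 29 in UAC (6.90% each), then 2 (6.90%) higher and 1 (3.45%) lower of 29, with medians of 0.02 and 0.13. Ptprz1, which encodes another receptor of IL-34, was at 2.54, 1.101 and 2.66 CPM: it fell by 1.20 on the log2 scale in UAC against sham (-1.56 to -0.85) and rose by 1.27 in miR-330 against UAC (0.94 to 1.62). Its level in the skeletal cluster, where Il34 also was, stood at 20.5, 13.4 and 40.3 CPM. Of the other colony stimulating factors and receptors 3 of 8 (37.5%) were higher and 0 lower in UAC, and 0 of 8 either way in miR-330 against UAC, with medians of 0.39 and 0.14. Flt3, a receptor gene of early blood cells, rose from 7.36 to 19.9 CPM. Csf2, Csf3 and Il3, the genes of other colony stimulating factors, had at most 3 UMIs in any library, and were named after their values were seen.

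The agent of the third group is miR-330, and the label does not say which arm of the hairpin it carries, so both mature rat sequences from RefSeq (build GRCr8) are shown, with the seed (bases 2 to 8) in capitals. The 5p arm lies at chr1:87961227-87961248 on the plus strand and shares its seed with rno-miR-326-3p, and the 3p arm lies at chr1:87961266-87961288 on the plus strand and shares its seed with none of the 693 mature rat sequences of the table. Matches to the transcripts of the members were not examined.
rno-miR-330-5p: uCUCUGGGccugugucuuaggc
rno-miR-330-3p: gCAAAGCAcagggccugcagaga

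Promoters from RefSeq (GRCr8), 250 bases before to 50 after the gene start, were found for 2 of 6 members, Csf1r and Tnfsf11. The promoter set used here had no entry under the names Tnfrsf11a, Tnfrsf11b, Csf1 and Il34, which does not mean that RefSeq lacks these genes. Those of Csf1r and Tnfsf11 are shown because no other member had an entry in that set. Spi1, the gene of the myeloid factor PU.1, was at 343, 370 and 321 CPM in the macrophage-marker cluster where Csf1r was highest. The letters GAGGAA, a core bound by PU.1, were searched on both strands and stand in capitals, as TTCCTC where the match is on the minus strand of the gene. Csf1r (chr18:56834129-56834428, plus strand) held 2 matches on the minus strand, starting 229 and 95 bases before the gene start, and Tnfsf11 (chr15:60114430-60114729, minus strand) held 1, starting 138 bases before it. Of all 33469 promoters of this length 27.6% held at least 1 match and 4.83% at least 2. A match of letters is a description and no measure of binding.
Csf1r promoter: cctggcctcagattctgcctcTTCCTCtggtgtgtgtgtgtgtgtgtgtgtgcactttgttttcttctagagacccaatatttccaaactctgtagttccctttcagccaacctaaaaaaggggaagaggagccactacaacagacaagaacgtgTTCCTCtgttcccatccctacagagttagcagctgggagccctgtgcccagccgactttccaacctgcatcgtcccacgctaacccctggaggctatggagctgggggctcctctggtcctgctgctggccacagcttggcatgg
Tnfsf11 promoter: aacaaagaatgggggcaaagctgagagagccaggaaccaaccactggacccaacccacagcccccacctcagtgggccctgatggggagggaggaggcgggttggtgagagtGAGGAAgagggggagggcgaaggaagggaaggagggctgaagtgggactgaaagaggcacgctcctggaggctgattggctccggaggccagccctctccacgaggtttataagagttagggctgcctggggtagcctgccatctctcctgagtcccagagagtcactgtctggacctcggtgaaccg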

How the data were processed

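The members and gene lists were chosen with earlier results of these data known. RNA of 3 pooled condyle libraries was counted by the authors: the deposited values are mean UMI counts per gene and cluster from the Cell Ranger 7.0 graph-based clustering tables, scaled by the authors so that every cluster of a library has the same sum. The submitters' processing notes also list STAR, Seurat 4.0.1, GRCh38 and mm10, although the organism is rat and the feature identifiers are rat Ensembl genes; the genome build of the tables is not given in the sources used here. The deposited tables also hold log2 fold changes and adjusted p-values of each cluster against the rest of its library, signal that was not used here.

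Each mean was divided by the smallest mean above 0 of its column, which gave whole UMIs for 100% of values within a tolerance of 1e-06, the largest distance from a whole number being 1.0e-07. Names on several features were summed. A gene that a table does not list was taken as having no UMI, since every listed gene had at least 1. Levels are UMIs per 1000000, tables were scaled separately, and features named AY172581 were taken as mitochondrial, an assumption. Doublets and free RNA were not treated, and counts per cell were not available.

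A marker was enriched in a cluster with at least 10 UMIs, at least 50 CPM and at least 2-fold the rest of the library (1 CPM added). Cluster names followed the largest number of enriched markers (3 or more, ties unnamed), unless the cluster's 10 leading genes (at least 50 UMIs) held more markers of another class, and B lineage where B markers summed to at least 10000 CPM. These thresholds were set after the values were seen, and no cluster lay between 6919 and 10667.5 CPM of B markers. The macrophage-marker cluster of the miR-330 library and the granule-gene clusters of sham and the miR-330 library stayed without a name under this rule and were compared by number.

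Genes named were the members, up to 3 genes of each list with the most UMIs, the largest rise and the largest fall past the fold in each comparison, the 5 genes most like each member, and osteoclast markers. From the list genes this rule gives, those described were picked after their values were seen. Intervals are exact (Poisson for levels, binomial for shares and ratios, 95%) and cover counting error only. A fold against 0 was taken against a floor of 3 UMIs per library. Scaling, count added, filter, fold and cluster choice were varied. The steps were tested on simulated data. Python 3.11.15, numpy 2.4.6, pandas 2.3.3 and scipy 1.17.1 were used.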

Additional observations from a re-analysis of the deposited data

Results flagged for a closer look

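Csf1 went in opposite directions in different clusters under the same comparison. UAC against sham, its log2 ratio was 1.18 in the granule-gene cluster and -3.26 in the macrophage-marker cluster. The granule-gene cluster is not the same cell class in each library: its 10 leading genes held 4 erythroid and 0 mast cell markers in sham, 0 and 3 in UAC and 0 of either in the miR-330 library, and the part of this in the ratios was not tested. In miR-330 against UAC Csf1 was at 1.82 in the macrophage-marker cluster, 3.59 in the T or NK cluster and -0.36 in the granule-gene cluster. Marker levels also moved in these clusters. For the macrophage-marker cluster, mast cell or basophil markers summed to 662, 11.4 and 8.52 CPM in sham, UAC and the miR-330 library. Its marrow stromal list, mostly Vcam1, summed to 162, 11.1 and 34.1 CPM and its erythroid list to 1155, 50.8 and 69.7 CPM. Mast cell or basophil markers of the T or NK cluster went from 26.5 CPM in UAC to 2237 CPM in the miR-330 library. How far these levels enter the ratios was not tested. Csf1r in miR-330 against UAC had a log2 ratio of 0.12 in the macrophage-marker cluster and -0.65 in the granule-gene cluster. Relative to the median gene of each cluster these were -0.06 and -1.19, so that the signs for Csf1r no longer differ. The macrophage list in the granule-gene cluster summed to 480 CPM in UAC (12 of 13 with UMIs, led by C1qa) and 64.6 CPM in the miR-330 library (8 of 13, led by Mrc1), with Marco and Ccr2 at 0 in both, and its part in the Csf1r value was not tested. Each group is 1 library, and the difference between clusters was not tested.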

How the results depend on the processing

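Of 117 alternatives, 12 were chosen after seeing the data and 105 were not. 85 stayed within the counting interval of the value, or within 1.5 times the count, and 32 moved beyond it. Of called values 0 changed sign, and a change of sign was counted for called values only. Values not called did change sign in some alternatives. These were library-wide Tnfrsf11a in both comparisons, Csf1 in UAC against sham, and macrophage-marker Csf1r in miR-330 against UAC. Il34 in miR-330 against UAC also did, from -0.07 to 0.17 on the deposited mean count scale. None of the alternatives was left out. No paired analysis was possible because each group has 1 library.

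On the deposited mean count scale every log2 ratio is shifted by 0.20 for UAC against sham and 0.24 for miR-330 against UAC, by construction. UAC against sham then gave -0.97 for Tnfrsf11b, 0.66 for Csf1, 0.65 for Csf1r and 0.78 for Tnfrsf11a, the last 3 now past the fold, and miR-330 against UAC gave 0.64 (now past the fold), 0.44 and 0.38 for the first 3. Centred on the median gene, Tnfrsf11a in UAC against sham was 0.60, past the fold, and Csf1r in miR-330 against UAC was 0.0112 over the library and -0.0623 in the macrophage-marker cluster.

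Alternatives chosen after seeing the data left out 1 cluster. Without the T or NK cluster, which sham lacked, Tnfrsf11a gave -0.87 for UAC against sham, where 0 UMIs were taken from sham, and -0.24 for miR-330 against UAC. Without the granule-gene cluster Csf1 gave -0.0392 and 0.51. Without the skeletal cluster Tnfrsf11b gave -0.79 for UAC against sham. That value rests on 13 UMIs in UAC (0.0799 to 0.257 CPM) and 18 in sham (0.155 to 0.414 CPM), intervals that overlap. All these values follow from the UMIs left out.

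The ratio of Tnfsf11 to Tnfrsf11b with 5 UMIs added was 0.00847 in sham, 0.0158 in UAC and 0.00951 in the miR-330 library. Outside the skeletal cluster, with 0.5 UMI added, it was 0.0811, 0.111 and 0.0256. The added count sets most of these values.

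Among list genes, UAC against sham, 7 were higher at 2-fold (5.98%, against 2.88% of all genes) and 31 on the deposited scale (26.5%, against 13%), and 6 were lower with no filter (4.8%, against 12.7%). In miR-330 against UAC 1 was higher (0.855%, against 2.89%) and 3 lower (2.56%, against 1.13%) at 2-fold, and 11 were higher with no filter (8.87%, against 18.4%). On the deposited scale 34 were higher (29.1%, against 28.9%) and 3 lower (2.56%, against 2.10%), and when centred 4 were higher (3.42%, against 7.22%) and 11 lower (9.40%, against 6.77%). The share of called genes that were higher thus went from 50% to 91.9% and 26.7% with scaling. With uncertain clusters left out, B-lineage clusters held 18.9%, 18.9% and 18.5% of Csf1 UMIs in sham, UAC and the miR-330 library. All Csf1 UMIs of the library stayed in the base, so that leaving out clusters could only lower this share. Beyond what the settings themselves do, the cause was not tested.

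Each group is 1 pool, so differences between rats and between libraries cannot be told apart from those between groups. Tnfsf11 at 1, 1 and 0 UMIs and Il34 at 25 in each library limit what can be said of either. Clustering was separate for each library, and cluster contents differ. Free RNA and doublets were not treated.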
